A study of Arabidopsis thaliana with 18 samples.

Results

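The MYB regulators of glucosinolate synthesis are 6 related transcription factor genes of Arabidopsis thaliana, and were picked by their locus numbers from the 33557 genes of the deposited table. They comprised MYB28 (AT5G61420), MYB29 (AT5G07690) and MYB76 (AT5G07700), which act on the aliphatic branch, and MYB34 (AT5G60890), MYB51 (AT1G18570) and MYB122 (AT1G74080), which act on the indolic branch. All 6 were found, and all 6 were among the 19639 genes with at least 1 FPKM in at least 1 group. Transcripts were measured by RNA sequencing in the entire aerial part of an ecotype from Sweden (SW) and of one from Italy (IT), both wild-derived lines. For each ecotype there were plants kept warm at 22 °C and plants moved to 4 °C for 1 week or for 2 weeks, with 3 libraries for each of the 6 groups. All plants first grew for 18 days on soil at 22 °C with 12 h of light a day, and all were harvested 4 h into the light period. The light was brighter in the warm (100 to 120 µmol) than in the cold (about 35 µmol, both per square metre and second), so cold, dim light and greater age cannot be told apart.

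Glucosinolates are sulfur-rich defence compounds of the cabbage order, stored in leaves and broken down by myrosinases when tissue is damaged. Aliphatic glucosinolates are built from methionine and indolic ones from tryptophan. The MYB proteins switch on the enzyme genes of their branch and bind basic helix-loop-helix partners of the MYC family to do so. MYB28 and MYB29 are the main aliphatic regulators and MYB76 an accessory one. Of the indolic regulators MYB34 is known to act mainly in roots and MYB51 mainly in shoots, and MYB122 contributes less.

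Values are FPKM (read fragments relative to transcript length and library size), a unit that takes out transcript length, so levels can be set side by side between genes. The table gave 1 combined value for each gene and group, as deposited by the authors. The spread between libraries is therefore not known, no p-value is given, and whether a difference exceeds replicate error could not be judged. Read depth is unknown as well. Groups were compared by the log2 ratio of their FPKM + 1, and a ratio of at least 1 in size (2-fold) counts as higher or lower. The added 1 pulls the ratios of low genes such as MYB122 and MYB76 toward 0.

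The FPKM values of a group summed to between 823963 and 1034038, and the median of the kept genes lay between 10.4 and 10.9 FPKM. Of 4 leaf markers, the carbonic anhydrase gene CA1 and the antenna gene LHCB4.1 stood at 643 FPKM or more in every group. The other 2, RBCS1A and LHCB1.1, were listed at 0 in all 6 groups, so a 0 in this table can be a failed estimate; none of the MYB genes was listed at 0. The 4 seed markers summed to at most 0.347 FPKM and 5 root markers to at most 5.01 FPKM in any group. Nearly all of the latter was WOX5 in SW after 2 weeks, at 4.95 FPKM against 1.03 in warm SW and 1.68 in IT after 2 weeks. Every other root marker stayed at or under 0.556 FPKM. The part of WOX5-bearing tissue in the SW values was not tested. The 5 flower markers summed to 7.22 FPKM in IT after 2 weeks, where 4 of 5 reached 1 FPKM, and to 0.440 to 1.20 FPKM in the other 5 groups, where 0 of 5 did. The 3 vein and myrosin cell markers summed to between 1463 and 2553 FPKM. Of these, TGG2 was at least 2-fold lower than warm at 2 weeks (log2 ratio -1.09 in SW and -1.33 in IT), while SUC2 and TGG1 were within 2-fold. Of the leaf markers, CA1 was lower at 1 week (-1.70 in SW and -1.18 in IT) and at 2 weeks in SW (-1.51). CA1 in IT at 2 weeks (-0.94) and LHCB4.1 throughout were within 2-fold of warm. In whole shoots, fewer cells of a type and less RNA per cell cannot be told apart.

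In the RefSeq annotation of TAIR10.1 each of the 6 genes was protein coding with 3 exons, and 4 of them lay on chromosome 5. MYB29 (chr5:2446669-2448584, plus strand) and MYB76 (chr5:2450027-2451807, plus strand) were direct neighbours, 1442 bp apart. MYB34 (chr5:24494291-24496371, plus strand) and MYB28 (chr5:24689069-24691187, minus strand) lay 195 kb apart at the other end of that chromosome. On chromosome 1, MYB51 lay at chr1:6389399-6391386 and MYB122 at chr1:27855578-27857598, both on the plus strand. MYB122 ended 5215 bp before SOT18 and 6746 bp before SOT16, which encode sulfotransferases of the last step of the glucosinolate core.

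The upstream sequences are shown for MYB29, MYB51 and MYB122, the 3 genes that were at least 2-fold apart between the ecotypes after 2 weeks of cold, and for MYB76, the neighbour of MYB29. Each is the 300 bases before the annotated start, 5′ to 3′ on the gene's strand, from the Columbia reference sequence (RefSeq, TAIR10.1), which is neither of the ecotypes sampled. Capitals mark matches on either strand to the CRT/DRE core CCGAC (the site bound by CBF cold regulators), the W-box core TTGAC (bound by WRKY factors) or the evening element AAATATCT (bound by clock factors).
MYB29, chr5:2446369-2446668: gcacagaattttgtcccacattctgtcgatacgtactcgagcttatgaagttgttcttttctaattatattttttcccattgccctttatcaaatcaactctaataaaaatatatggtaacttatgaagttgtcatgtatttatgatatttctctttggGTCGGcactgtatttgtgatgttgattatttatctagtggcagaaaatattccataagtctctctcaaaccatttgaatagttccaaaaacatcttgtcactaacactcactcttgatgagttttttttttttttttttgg
MYB76, chr5:2449727-2450026: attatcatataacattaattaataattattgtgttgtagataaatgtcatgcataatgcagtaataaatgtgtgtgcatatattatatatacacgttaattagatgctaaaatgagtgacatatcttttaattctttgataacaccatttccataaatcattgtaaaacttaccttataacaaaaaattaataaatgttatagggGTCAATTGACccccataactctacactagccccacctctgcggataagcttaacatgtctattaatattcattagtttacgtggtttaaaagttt
MYB51, chr1:6389099-6389398: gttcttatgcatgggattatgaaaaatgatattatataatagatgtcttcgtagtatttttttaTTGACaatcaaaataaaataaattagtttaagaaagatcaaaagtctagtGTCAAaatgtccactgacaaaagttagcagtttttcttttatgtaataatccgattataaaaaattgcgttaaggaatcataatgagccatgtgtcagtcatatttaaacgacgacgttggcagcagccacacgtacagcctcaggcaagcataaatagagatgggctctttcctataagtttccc
MYB122, chr1:27855278-27855577: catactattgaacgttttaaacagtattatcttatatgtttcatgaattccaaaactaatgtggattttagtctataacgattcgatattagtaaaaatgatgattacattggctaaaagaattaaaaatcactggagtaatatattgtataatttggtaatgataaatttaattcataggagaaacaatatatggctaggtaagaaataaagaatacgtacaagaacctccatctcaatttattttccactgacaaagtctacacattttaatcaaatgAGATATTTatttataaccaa

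MYB29 held the only CRT/DRE core of the 6 windows, 141 bases before its start; 13.9% of 27443 such windows of protein-coding genes held one. In MYB76 a pair of W-box cores on opposite strands stood end to end 95 bases before the start, and MYB51 held W-box cores 236 and 186 bases before its start, against 50.4% of all windows with at least 1. MYB122 held an evening element 20 bases before its start, which 5.64% of windows held. The G-box CACGTG, a site bound by MYC factors, was in none of the 6 windows and in 7.09% of all. The windows of MYB28 and MYB34 held none of these letters, which says nothing of sites elsewhere.

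The 6 coding sequences were alike enough that shared reads had to be considered. Aligned in 15 pairs, they were 66.8% to 79.2% identical, and MYB29 and MYB76 were the most alike pair. The longest run of identical bases in any pair, shown because a read would have to fit inside such a run to be shared without a mismatch, was 32 bases between MYB28 and MYB76.
MYB28 and MYB76: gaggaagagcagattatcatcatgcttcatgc
How the authors' counting treated reads that match several genes is not given in the sources used here. Bases in which SW or IT differ from the reference can also lower a value, and their part was not tested.

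MYB28 and MYB29 were the most abundant of the 6 in every group, and the aliphatic regulators together far outweighed the indolic ones. MYB28 ranged from 42.7 to 89.9 FPKM and MYB29 from 24.0 to 96.2 FPKM over the 6 groups, which put MYB28 at percentile 82.0 to 92.3 and MYB29 at percentile 70.8 to 92.8 of the kept genes. MYB76, MYB34 and MYB51 stood at intermediate to low levels, with medians of 4.74, 4.74 and 7.92 FPKM. MYB122 was the lowest in 5 of the 6 groups, with 0.149 to 3.46 FPKM, and MYB76 was the lowest in IT after 2 weeks. In SW, MYB29 came before MYB28 in each of the 3 conditions, and in IT MYB28 came before MYB29 in each of the 3. Whether neighbours in these orders differ beyond the spread of libraries could not be tested.

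**Figure D1:**
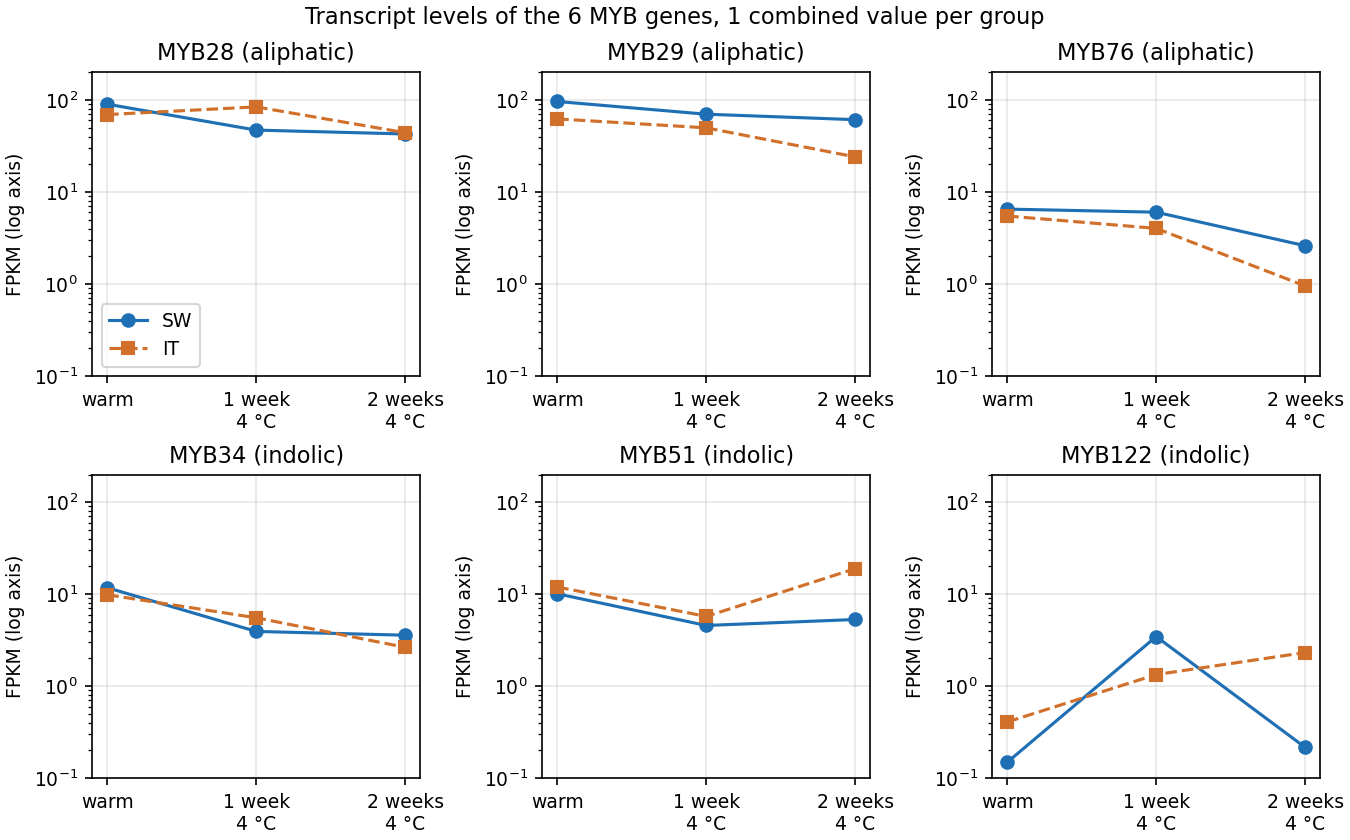
FPKM (log axis) of each MYB gene in the warm and after 1 and 2 weeks at 4 °C, for SW (circles, solid lines) and IT (squares, dashed lines), with 1 combined value per point and no error bars. MYB28 and MYB29 stand highest, MYB34 is lower in the cold in both ecotypes, and the lines of MYB51 and MYB122 part at 2 weeks, with 18.9 FPKM of MYB51 in IT and 5.31 in SW.

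Of the 3 aliphatic regulators 2 were at least 2-fold lower after 2 weeks of cold in each ecotype, MYB28 and MYB76 in SW and MYB29 and MYB76 in IT. MYB28, whose product is the principal activator of methionine-derived glucosinolates, was at 89.9 FPKM in warm SW, 47.0 after 1 week and 42.7 after 2 weeks. The IT levels were 69.3 FPKM in the warm, 84.1 after 1 week and 44.1 after 2 weeks. Both SW cold values lay below the SW warm value, whereas in IT the 1-week value was the highest of the 3. The log2 ratios to warm were -0.92 at 1 week and -1.06 at 2 weeks in SW, and 0.27 and -0.64 in IT, and the SW response at 1 week minus that of IT was -1.20. The sign of the IT value at 1 week turned to -0.17 when groups were scaled to 12 reference genes, a scaling that moved the median of all genes in that comparison to -0.38.

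MYB29, the second main aliphatic regulator, was at 96.2 FPKM in warm SW, 70.0 after 1 week and 61.0 after 2 weeks. IT plants had 62.2 FPKM in the warm, 49.8 after 1 week and 24.0 after 2 weeks. The order warm, 1 week, 2 weeks ran downward in both ecotypes, and the lowest value was that of IT after 2 weeks. The log2 ratios at 2 weeks were -0.65 in SW and -1.34 in IT, so the gene was at least 2-fold lower in IT and within 2-fold in SW.

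MYB76, the accessory regulator beside MYB29, was at 6.51 FPKM in warm SW, 6.02 after 1 week and 2.60 after 2 weeks. In IT it was at 5.47 FPKM in the warm, 4.01 after 1 week and 0.951 after 2 weeks. In both ecotypes the 1-week value lay nearer to the warm value than to the 2-week value. The log2 ratios at 2 weeks were -1.06 in SW, which was -0.93 under quantile normalization, and -1.73 in IT. From the first to the second week the log2 ratios were -0.96 in SW and -1.36 in IT.

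Summed over the 3 aliphatic regulators, SW had 193 FPKM in the warm, 123 after 1 week and 106 after 2 weeks. The IT sums were 137 FPKM in the warm, 138 after 1 week and 69.0 after 2 weeks. On the deposited scale the sum was thus already lower at 1 week in SW and stood at its warm level in IT, where the lower value came with the second week. MYB28 made up 46.7%, 38.2% and 40.1% of that sum in SW over the 3 conditions. In IT its share was 50.6% in the warm, 61.0% after 1 week and 63.8% after 2 weeks, so the make-up moved toward MYB29 in SW and toward MYB28 in IT.

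The indolic regulators went 3 different ways. MYB34, a regulator also known for its control of tryptophan synthesis genes, was at 11.8 FPKM in warm SW, 3.94 after 1 week and 3.58 after 2 weeks. The IT level was 9.86 FPKM in the warm, 5.54 after 1 week and 2.65 after 2 weeks. Every cold value lay below both warm values. The log2 ratios to warm were -1.37 at 1 week and -1.48 at 2 weeks in SW, and -0.73 and -1.57 in IT, which made MYB34 the only member at least 2-fold lower in both ecotypes at 2 weeks under every setting tried.

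MYB51, an indolic regulator also known from responses to microbes, was at 10.1 FPKM in warm SW, 4.57 after 1 week and 5.31 after 2 weeks. IT plants had 12.0 FPKM in the warm, 5.73 after 1 week and 18.9 after 2 weeks. The ecotypes were close in the warm and at 1 week, and at 2 weeks the IT value was the highest of all 6. The 1-week log2 ratios, -0.995 in SW and -0.95 in IT, lay just within 2-fold and passed it with a pseudocount of 0.1 (-1.13 and -1.05). At 2 weeks the log2 ratio to warm was -0.82 in SW and 0.62 in IT, a difference of -1.43 between the responses. The second week alone gave a log2 ratio of 0.18 in SW and 1.57 in IT. The flower markers were highest in the same 2-week IT plants, and their part in this value was not tested.

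MYB122, the least expressed indolic regulator, was at 0.149 FPKM in warm SW, 3.46 after 1 week and 0.216 after 2 weeks. In IT it was at 0.408 FPKM in the warm, 1.34 after 1 week and 2.32 after 2 weeks. The SW level was high at 1 week alone, whereas the IT level was higher at each later time. Without the added 1, the SW value at 1 week was 23.2 times the warm value, and on the log2 scale of FPKM + 1 the ratios to warm were 1.96 at 1 week and 0.08 at 2 weeks in SW, and 0.73 and 1.24 in IT. From 1 to 2 weeks the log2 ratio was -1.87 in SW and 0.51 in IT. The SW ratio at 2 weeks changed sign to -0.01 under reference-gene scaling. Of the genes averaging under 5 FPKM, 12.1% passed 2-fold in SW after 1 week and 12.1% in IT after 2 weeks. The levels of MYB122 are low, at percentile 2.54 to 24.6 of the kept genes, and with unknown depth their counting error cannot be stated.

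Summed, the indolic regulators had 22.0 FPKM in warm SW, 12.0 after 1 week and 9.11 after 2 weeks. The IT sums were 22.3 FPKM in the warm, 12.6 after 1 week and 23.9 after 2 weeks. MYB51 made up 79.2% of the IT sum after 2 weeks, against 53.9% in warm IT, and MYB122 made up 28.9% of the SW sum after 1 week, against 0.676% in warm SW. The aliphatic sum was 8.75 times the indolic sum in warm SW, 10.3 times after 1 week and 11.7 times after 2 weeks. In IT it was 6.16 times in the warm, 10.9 times after 1 week and 2.89 times after 2 weeks.

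**Figure D2:**
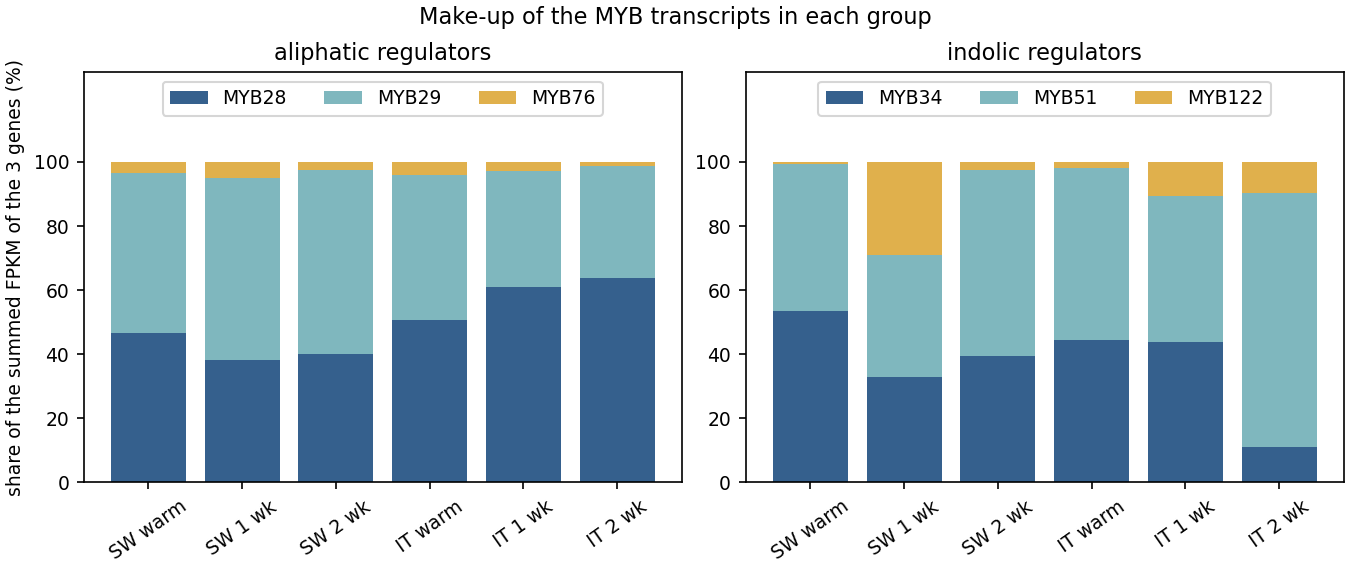
Share of each gene (%) in the summed FPKM of the 3 aliphatic regulators (left) and the 3 indolic regulators (right), with 1 stacked bar per group. MYB28 takes 63.8% of the aliphatic sum in IT after 2 weeks, and MYB51 takes 79.2% of the indolic sum there.

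Counted at 2-fold, the members past the limit in the cold were mostly lower. After 1 week in SW, MYB122 was higher and MYB34 lower, 1 of 6 in each direction, where 7.81% of all genes with a ratio were higher and 6.20% lower. After 1 week in IT 0 of 6 passed 2-fold, where 10.0% of all genes were higher and 7.91% lower (17.9% together). After 2 weeks in SW 3 of 6 were lower (MYB28, MYB76 and MYB34) and 0 higher, where 7.47% of all genes were lower and 6.54% higher. After 2 weeks in IT 3 of 6 were lower (MYB29, MYB76 and MYB34) and 1 was higher (MYB122), where 6.43% of all genes were lower and 7.03% higher. The median log2 ratio of the 6 was -0.69 and -0.34 at 1 week in SW and IT, and -0.94 and -0.99 at 2 weeks, while that of all kept genes lay between -0.00229 and 0.042 in these comparisons.

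Scaling by reference genes moved the median of all genes to between -0.38 and -0.51 in the 4 comparisons of cold with warm, and gave a split of all genes at 2 weeks of 481 higher and 3874 lower in SW, against 1265 and 1444 as deposited, and of 497 and 3584 in IT, against 1362 and 1247. At 1 week the same scaling gave 665 higher and 3561 lower in SW, against 1511 and 1200 as deposited, and 1021 and 3466 in IT, against 1941 and 1532. Under it 5 of 6 MYB genes were at least 2-fold lower in SW after 2 weeks and 4 after 1 week, and MYB122 in IT after 2 weeks was at 0.98.

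**Figure D3:**
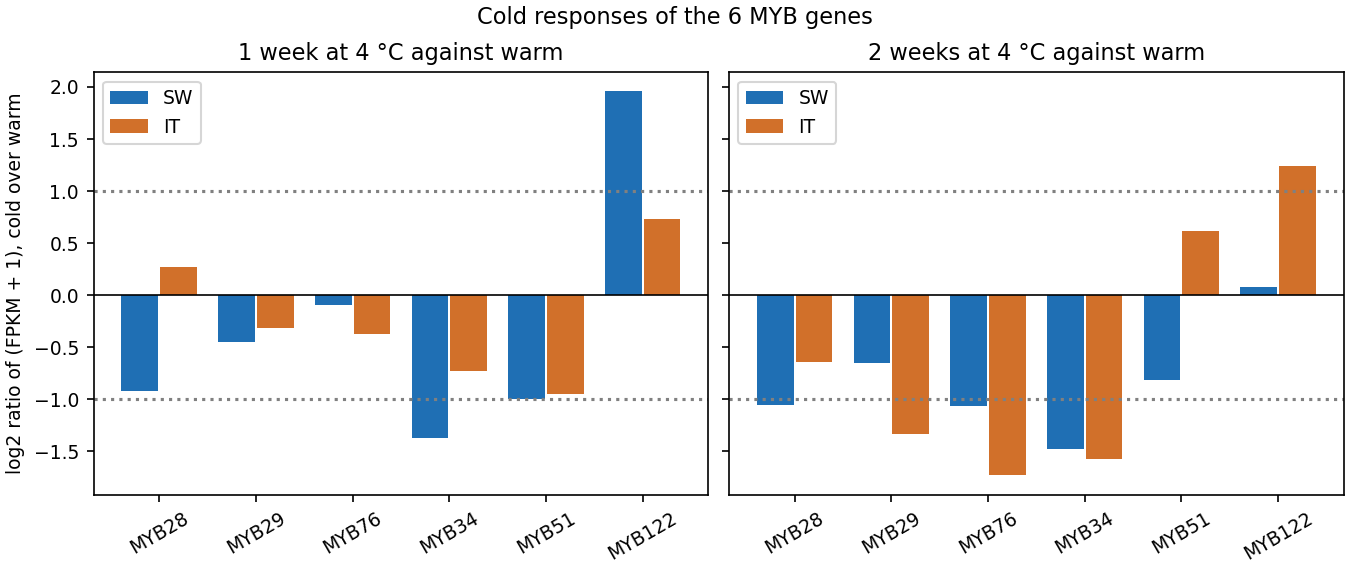
Log2 ratio of FPKM + 1, cold over warm, for each MYB gene after 1 week (left) and 2 weeks (right), with SW bars left of IT bars and dotted lines at 2-fold. MYB34 is negative in all 4 comparisons, MYB122 is positive in all 4 (the SW value at 2 weeks was -0.01 under reference-gene scaling), and MYB51 at 2 weeks is -0.82 in SW and 0.62 in IT.

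The second week of cold, set against the first, gave 1 lower gene of 6 in SW (MYB122, where 2.88% of all genes were lower and 0.408% higher, 3.29% together). In IT 2 were lower (MYB29 at -1.02 and MYB76) and 1 higher (MYB51), where 1.48% of all genes were lower and 1.81% higher, 3.29% together. Reference-gene scaling changed the split of all genes in IT to 253 higher and 477 lower, against 352 and 287 as deposited. MYB28 at -0.92 and MYB34 at -0.84 lay just within 2-fold in IT, against -0.14 and -0.11 in SW. MYB29 in IT was at -0.99 under quantile normalization.

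Between the ecotypes 0 of 6 MYB genes were 2-fold apart in the warm and at 1 week on the scale of FPKM + 1, and 3 of 6 after 2 weeks. With a pseudocount of 0.1, MYB122 passed 2-fold in the warm (-1.03) and at 1 week (1.31). In warm plants, where 2.68% of all genes were higher and 4.22% lower in SW (6.90% together), the log2 ratios of SW over IT ran from -0.29 for MYB122 to 0.62 for MYB29. After 1 week 4.57% of all genes were higher and 3.95% lower (8.51% together; 671 and 939 genes under reference-gene scaling, against 883 and 763 as deposited), and MYB122 at 0.93 and MYB28 at -0.83 were the extremes of the 6. After 2 weeks MYB29 was higher in SW, with 61.0 FPKM in SW against 24.0 in IT (log2 ratio 1.31). MYB51 was lower in SW, with 5.31 FPKM in SW against 18.9 in IT (-1.66), and so was MYB122, with 0.216 FPKM in SW against 2.32 in IT (-1.45). That made 1 of 6 higher and 2 of 6 lower, where 3.92% of all genes were higher and 7.19% lower. MYB76 at 0.88 lay within 2-fold and reached 1.36 with a pseudocount of 0.1 and 1.07 under quantile normalization, MYB34 was at 0.33 and MYB28 was level at -0.05. The flower markers were also higher in the 2-week IT plants (summed 0.440 FPKM in SW against 7.22 in IT), and their part in these differences was not tested.

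**Figure D4:**
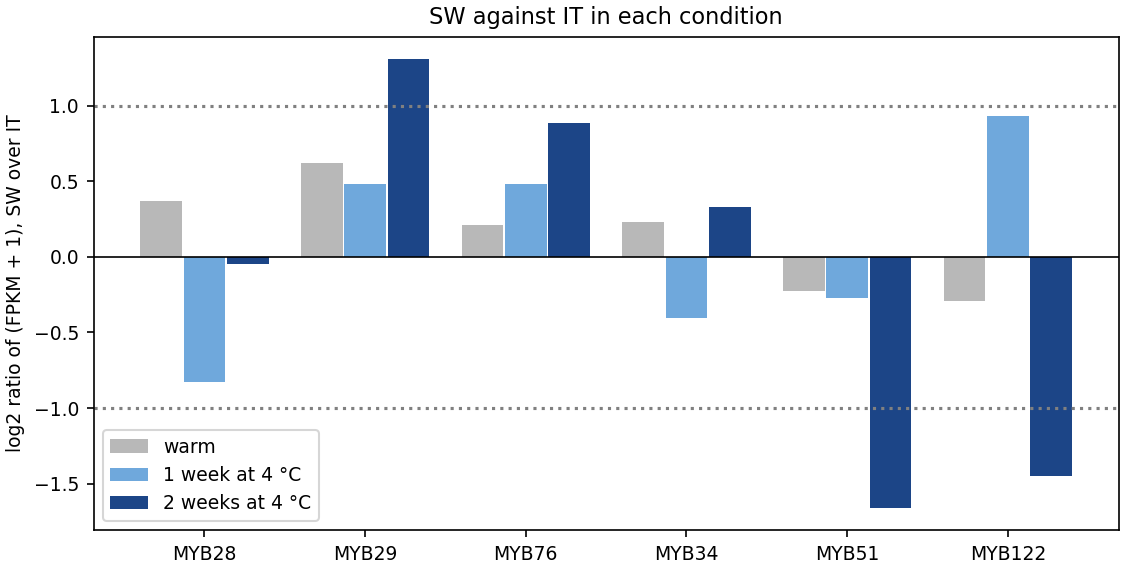
Log2 ratio of FPKM + 1, SW over IT, for each MYB gene in the warm (grey), after 1 week (light blue) and after 2 weeks at 4 °C (dark blue), with dotted lines at 2-fold. The warm bars all lie within 2-fold, and at 2 weeks MYB29 reaches 1.31, MYB51 -1.66 and MYB122 -1.45.

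The difference between the ecotypes' responses, SW minus IT, passed 2-fold for 2 of 6 genes at each time. At 1 week MYB122 was at 1.23 and MYB28 at -1.20, where 4.89% of all genes were at 1 or more and 2.43% at -1 or less (7.32% together; 795 and 807 genes under reference-gene scaling, against 940 and 467 as deposited). At 2 weeks MYB51 was at -1.43 and MYB122 at -1.16, where 3.07% of all genes were at 1 or more and 4.21% at -1 or less (7.28% together). MYB122 thus passed in opposite directions, with the larger SW response at 1 week and the larger IT response at 2 weeks. Its 2-week value was -0.996 under reference-gene scaling. MYB29 at 0.69 and MYB76 at 0.67 stayed within 2-fold at 2 weeks.

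MYC2, MYC3 and MYC4, the bHLH proteins that join the MYB proteins at their target genes, had transcript levels within 2-fold of warm in both ecotypes and at both times on the deposited scale, where 13.5% to 17.9% of all genes passed 2-fold in either direction. Under reference-gene scaling MYC2 was lower in SW at both times (-1.05 at 1 week and -1.52 at 2 weeks) and in IT at 1 week (-1.29), as were MYC3 in IT at 1 week (-1.03) and MYC4 in IT at 2 weeks (-1.01). MYC2 in SW at 2 weeks, at -0.92 as deposited, also passed 2-fold under upper-quartile scaling (-1.02) and quantile normalization (-1.01). MYC3, the most abundant, was at 48.1 FPKM in warm SW, 43.6 after 1 week and 46.9 after 2 weeks, and at 46.1, 30.2 and 42.9 FPKM in IT over the same conditions. NIG1 (AT5G46830, also named MYC5), with low values, completed the list of 4 bHLH partners. It was the 1 of 4 at least 2-fold lower in each cold comparison. Its level was 0.978 FPKM after 2 weeks against 4.57 in the warm in SW, and 0.596 against 2.55 in IT. After 1 week NIG1 was at 0.752 FPKM in SW and 0.609 in IT.

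Of 17 upstream or modulating regulators 0 were at least 2-fold higher in any of the 4 comparisons of cold with warm. At 1 week 2 were lower in SW and 2 in IT, where 6.20% and 7.91% of all genes were lower, and at 2 weeks 3 were lower in SW and 1 in IT, where 7.47% and 6.43% were. Under reference-gene scaling 4 were lower in each ecotype at 1 week, and 5 in SW and 2 in IT at 2 weeks. SDI1, a sulfur-deficiency gene whose product is known to restrain MYB28, was at 11.6 FPKM in warm SW, 2.27 after 1 week and 2.61 after 2 weeks. IT plants had 35.5 FPKM in the warm, 1.05 after 1 week and 14.3 after 2 weeks. WRKY33, a defence regulator, was at 37.4 FPKM in warm SW, 38.2 after 1 week and 16.3 after 2 weeks, and at 37.9, 24.4 and 65.2 FPKM in IT. After 2 weeks SDI1 (log2 ratio -2.08), WRKY33 (-1.93) and SDI2 (AT1G04770, -1.02) were the 3 of 17 that were lower in SW than in IT, where 7.19% of all genes were. SDI1 was also lower in SW in the warm, at 11.6 against 35.5 FPKM, but not at 1 week, at 2.27 against 1.05 FPKM. SLIM1 (listed as EIL3), the central regulator of the sulfur limitation response, was within 2-fold of warm throughout, from 0.43 to 0.64.

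More genes of aliphatic synthesis were at least 2-fold lower at 2 weeks than at 1 week in both ecotypes. Of 27 listed genes, 25 passed the filter; AOP3 and BZO1 stayed under 1 FPKM in every group. At 1 week 2 were at least 2-fold higher and 1 lower in SW (median -0.23), where 7.81% of all genes were higher and 6.20% lower. In IT 3 were higher and 3 lower at 1 week (median 0.09), where 10.0% of all genes were higher and 7.91% lower. At 2 weeks 13 of 25 were lower and 1 higher in SW (median -1.05), and 11 were lower and 1 higher in IT (median -0.89), where 7.47% of all genes were lower and 6.54% higher in SW and 6.43% lower and 7.03% higher in IT. Under reference-gene scaling 9 were lower in SW and 3 in IT at 1 week, and 20 in SW and 19 in IT at 2 weeks. The medians under that scaling were -0.82 and -0.35 at 1 week in SW and IT, and -1.67 and -1.43 at 2 weeks, next to the shift of all genes given above. IPMI1 (AT3G58990) and IMD1 (AT5G14200), which act in methionine chain elongation, had log2 ratios at 2 weeks of -2.10 and -1.49 in SW and -1.47 and -1.27 in IT. The elongation enzyme gene MAM1 was within 2-fold, at -0.14 in SW and -0.51 in IT. Of the later steps, SOT17 was at -2.01 in SW, and AOP2, a side-chain enzyme gene annotated as a transcribed pseudogene in the Columbia reference, was at -2.32 in IT with 103 FPKM against 519 in the warm. FMO GS-OX4, a side-chain oxygenase gene, was the 1 higher gene, with 82.9 FPKM after 2 weeks against 3.08 in warm SW, and 13.3 against 5.05 in IT.

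Genes of the indolic branch gave unlike counts in the ecotypes at 2 weeks, a difference that was not tested. At 2 weeks 7.47% of all genes were lower and 6.54% higher in SW, and 6.43% lower and 7.03% higher in IT. In SW 4 of 13 were lower and 1 higher (median -0.79), with SOT16 at -1.67, GSTU13 at -1.34 and CYP83B1 at -1.18. In IT 2 were lower and 2 higher (median -0.06), with CYP81F4 at -1.58, GSTU13 at -1.07 and CYP79B2, which makes the first committed intermediate from tryptophan, at 1.28. CYP79B2 stood at 21.1 FPKM in SW against 70.8 in IT after 2 weeks (-1.70). CYP79B3, of the same list, was within 2-fold between the ecotypes at that time (-0.52). Against warm, CYP79B3 was at -0.79 in SW and -0.01 in IT at 2 weeks. After 1 week CYP79B2 was already at 67.9 FPKM in IT (log2 ratio to warm 1.22) and at 37.4 FPKM in SW (0.25). In IT 2 of the 13 indolic genes were higher and 1 lower at 1 week, where 10.0% of all genes were higher and 7.91% lower. In SW 2 of the 13 were higher and 0 lower at 1 week, where 7.81% of all genes were higher and 6.20% lower. At 2 weeks the glutathione transferase gene GSTF9, the most abundant of the list, was within 2-fold at 0.53 in SW and 0.61 in IT. Of 6 tryptophan synthesis genes, ASA1 was lower in SW (-1.32) and ASB1 higher in IT (1.06). All 3 genes of the core shared by both branches were lower in SW at 2 weeks (UGT74B1 at -1.53, GGP1 at -1.49 and SUR1 at -1.21), and 0 of 3 passed 2-fold in IT, where GGP1 was at -0.81. In sulfate assimilation 5 of 8 genes were lower in SW and 2 of 8 in IT, led by APK2, which makes the sulfate donor, at -1.79 in SW and -1.46 in IT. Of 3 transporter genes 0 passed 2-fold in SW and NRT1.9 was lower in IT (-1.02 at 1 week, where 7.91% of all genes were lower, and -1.21 at 2 weeks).

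Reference-gene scaling changed most of these 2-week counts. Under it 8 of 13 indolic genes were lower in SW and 3 in IT, with 0 higher in both, and the medians were -1.31 in SW and -0.57 in IT. Of the shared core 3 of 3 were lower in SW and 2 of 3 in IT (median -1.05 in IT, against -0.47 as deposited). Of the sulfate genes 5 of 8 were lower in SW and 4 of 8 in IT (median -1.07 in IT, against -0.50 as deposited). Of 6 tryptophan synthesis genes 4 were lower in SW and 1 in IT, with 0 higher, and of the transporter genes 2 of 3 were lower in each ecotype.

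**Figure D5:**
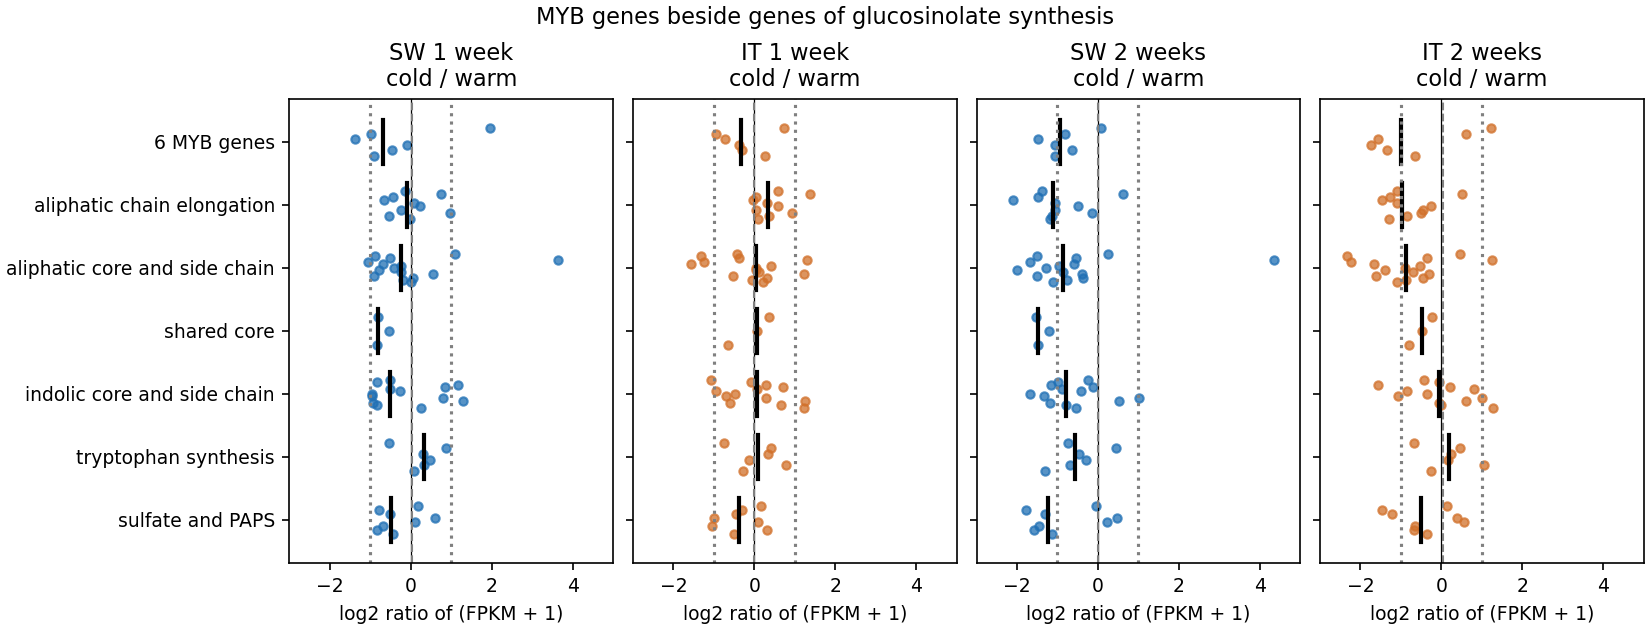
Log2 ratio of FPKM + 1, cold over warm, of the 6 MYB genes and of the genes of each pathway step that passed the filter (points), with the list median (black bars), the median of all kept genes (dashed line) and 2-fold (dotted lines). At 2 weeks the medians of both aliphatic lists lie left of 0 in both ecotypes, while the indolic core median is -0.79 in SW and -0.06 in IT.

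Likeness of profiles was measured as the root mean square difference between centred log2 values over the 6 groups, among the genes with at least 5 FPKM in their highest group. These 6 points are combined values that share their libraries between genes, so the ranks are a description. The 3 genes nearest to MYB76 were ESP (0.15), which encodes the epithiospecifier protein that steers glucosinolate breakdown, BCAT4 (0.18), the aminotransferase that opens methionine chain elongation, and the aspartate kinase gene AK3 (0.19). CYP79F1, the first aliphatic core enzyme gene, ranked 4 of 15442 and MYB29 ranked 12. Of the 10 chain elongation genes 8 were among the nearest 5% to MYB76, of 14 aliphatic core and side-chain genes 8, and of 13 indolic genes 2.

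For MYB29 the nearest genes were AT3G47347 (0.15), GATA7 (0.16) and AK-HSDH I (0.16). Its nearest 5% held 5 of 10 chain elongation genes, 4 of 14 aliphatic core and side-chain genes and 1 of 13 indolic genes. For MYB28 the nearest genes were AT3G06770 (0.11), AT3G29230 (0.12) and AT4G16980 (0.13). All 3 shared core genes were among its nearest 5%, with SUR1 at rank 45. Of the chain elongation genes 1 of 10 was there, of the aliphatic core and side-chain genes 5 of 14, and of the indolic genes 2 of 13. MYB34 lay nearest to AT1G04800 (0.11), AT1G18745 (0.13) and AT2G26215 (0.14). Its nearest 5% held 1 of 13 indolic genes and 0 of 6 tryptophan synthesis genes. Among them were also 3 of 8 sulfate genes, 1 of 3 shared core genes and 2 of 14 aliphatic core and side-chain genes. MYB51 lay nearest to the nitrilase gene NIT3 (0.16), ATCG00020 (0.18) and the flotillin gene FLOT1 (0.20), with CYP83B1 at rank 66. Of 13 indolic genes 3 were among the nearest 5% to MYB51, and of 6 tryptophan synthesis genes 0. MYB122 lay nearest to AT2G39518 (0.13), AT1G29290 (0.16) and JAZ1 (0.17), which encodes a repressor of jasmonate signalling and was at 79.7 FPKM after 1 week in SW and 62.9 after 2 weeks in IT, its highest values in each ecotype. Of 6 tryptophan synthesis genes 4 were among the nearest 5% to MYB122, of 13 indolic genes 2, and of 14 aliphatic core and side-chain genes 1. Such a rank does not mean a change of like size. TSB1, the most abundant tryptophan synthesis gene, was at 113 FPKM in warm SW and 206 after 1 week, against 0.149 and 3.46 for MYB122.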

How the data were processed

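Illumina libraries were made from RNeasy-purified RNA, per the labels' protocols. TopHat 1.4.1 and Cufflinks 2.1.1 with Cuffdiff, on TAIR10, are named in the submitters' processing notes. Settings, strand handling and how the 3 libraries became 1 value are not given in the sources. The authors deposited FPKM values, 1 per gene and group per the file headers, for 33557 genes. The planned limma fit needed values per library, so group values and their ratios are given with no test. The number of reads behind a value is unknown, so no interval or floor is given.

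Values were used as deposited. Genes with at least 1 FPKM in at least 1 group were kept (19639). Ratios are of log2(FPKM + 1), called at 2-fold; a gene listed at 0 in a compared group got no ratio. The MYB genes and the 16 lists (120 loci, all in the table) were chosen with earlier results of these data known. Named genes were all MYB genes, MYC2, MYC3 and MYC4, and the 3 nearest profiles. Up to 3 list members past 2-fold and the most abundant within it were also named. NIG1, SLIM1, AOP3, BZO1, CYP79B3 and the genes given by rank (CYP79F1, SUR1, CYP83B1), and values in the other ecotype, were added after their values were seen. Alternatives were pseudocounts of 0.1 and 0.25, no filter, a filter of 5 FPKM, scaling to the upper quartile or to 12 reference genes, and quantile normalization. Names and coordinates came from RefSeq's TAIR10.1 annotation (32813 loci matched, 97.8%); the table holds no coordinates to compare. Python 3.11.15, pandas 2.3.3 and Biopython 1.88 were used. The calls were run on simulated data with planted changes of fixed size, which checks the code and says nothing of replicate error.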

Additional observations from a re-analysis of the deposited data

Results flagged for a closer look

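All 6 MYB genes were checked at both times for responses of opposite sign that differed by at least 2-fold between the ecotypes. The cold response of MYB28 at 1 week pointed in opposite directions in the ecotypes. The log2 ratio of cold over warm was -0.92 in SW and 0.27 in IT, and SW minus IT was -1.20. Under reference-gene scaling the IT value was -0.17 and the directions were the same. Across all genes, 2.43% had a difference of -1 or less at 1 week, and 7.32% one of at least 1 in size. These shares count genes whatever the signs of their responses.

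For MYB51 the same held at 2 weeks, with -0.82 in SW and 0.62 in IT and a difference of -1.43. Across all genes, again whatever the signs, 4.21% had a difference of -1 or less at 2 weeks, and 7.28% one of at least 1 in size. Neither difference was tested, since each group has 1 combined value.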

How the results depend on the processing

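No paired analysis was possible because the table gives 1 combined value per group, and for the same reason leaving out each replicate was not run. Of 451 recomputed ratios and response differences of the MYB genes under 7 alternatives, 417 kept their side of 2-fold, 30 passed it anew, 4 dropped under it and 0 called values changed sign. The counts of MYB genes past 2-fold moved as follows. A pseudocount of 0.1 gave 2 lower in SW at 1 week, 1 higher and 1 lower in IT at 1 week, 2 lower in SW and 3 lower in IT from the first to the second week, and for SW over IT 1 lower in the warm, 1 higher at 1 week and 2 higher at 2 weeks, with 1 higher for the difference of responses at 2 weeks. A pseudocount of 0.25 gave the same counts, except for SW over IT in the warm, which stayed at 0, and IT from the first to the second week, which stayed at 2. Keeping only genes of at least 5 FPKM removed MYB122 and so gave 0 higher in SW at 1 week, 0 higher in IT at 2 weeks, 0 lower from the first to the second week in SW, 1 lower in SW than IT at 2 weeks, and for the differences of responses 0 higher at 1 week and 1 lower at 2 weeks. Upper-quartile scaling gave 3 lower in SW and 1 lower in IT at 1 week. Reference-gene scaling gave 4 lower in SW and 2 lower in IT at 1 week, 5 lower in SW, 4 lower in IT and 0 higher in IT at 2 weeks, 3 lower in IT from the first to the second week, and 1 lower for the difference of responses at 2 weeks. Quantile normalization gave 2 lower in SW at 1 week, 2 lower in SW at 2 weeks, 1 lower in IT from the first to the second week and 2 higher in SW than IT at 2 weeks. With no filter the MYB counts did not move. The pseudocount acts most on MYB122 and MYB76, the lowest genes, and the depth behind them is unknown. Counts over all genes moved by over 1.5 times in 24 of 154 recomputations, those under reference-gene scaling being given with the results. With a pseudocount of 0.1, 220 genes were higher and 925 lower from the first to the second week in SW, against 79 and 557, and 651 and 482 in IT, against 352 and 287; for SW over IT, 791 and 1269 in the warm, against 518 and 816, and 1328 and 1238 at 1 week, against 883 and 763. The differences of responses gave 867 lower at 1 week, against 467, and 1242 at 2 weeks, against 810. With 0.25 the second week gave 175 higher in SW and 563 higher and 431 lower in IT, and the difference at 1 week 750 lower. The cause of the other shifts was not tested.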
